A study of Mus musculus with 6 samples.

Results

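The mitochondrial ribosomal protein genes of the mouse were followed in the mouse angiosarcoma line ADC106 after transfection with an miR-497 mimic. They were chosen by name, as the protein-coding genes whose symbol is Mrpl or Mrps followed by a number. The rule found 78 of the 55401 genes in the count table, 49 with the large subunit prefix (Mrpl) and 29 with the small subunit prefix (Mrps). Of these, 72 had enough counts to be tested, 45 in the large and 27 in the small subunit. No measured value entered the choice of members.

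The mitochondrial ribosome, or mitoribosome, translates the few proteins that the mitochondrial genome encodes, all of them parts of the oxidative phosphorylation machinery. Its RNAs come from mitochondrial DNA, whereas every one of its proteins is encoded in the nucleus, made in the cytosol and imported, so that a complete particle needs many unlinked genes in step. The small subunit reads the mRNA, the large subunit joins the amino acids and lets the new chain out through its exit tunnel, and both carry proteins inherited from bacteria together with proteins that arose in the mitochondrial lineage.

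ADC106 cells come from an angiosarcoma, a tumour of the cells that line vessels, and the labels give the genotype as WT. One group was transfected with a mimic labelled NC, the control, and the other with the miR-497 mimic, each at 12.5 nM, and RNA was taken on day 3. A mimic is a synthetic RNA duplex that loads the microRNA strand onto Argonaute proteins. Each group had 3 libraries of poly(A) RNA from this 1 line, and the labels do not say whether they came from separate cultures. The p-values therefore measure the spread between these libraries, which may be technical.

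MicroRNAs pair with transcripts mainly through the seed, bases 2 to 8 from the 5′ end. The sequence of mmu-miR-497a-5p (RefSeq, GRCm38.p6, chr11:70234730-70234751, plus strand) is given with 2 other miRNAs to show the seed they share, in capitals. The labels name the mimic only as miR-497, and the arm was taken as 5p.

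mmu-miR-497a-5p: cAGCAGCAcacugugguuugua
mmu-miR-195a-5p: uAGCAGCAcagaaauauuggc
mmu-miR-16-5p: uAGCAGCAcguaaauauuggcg

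A match to this seed in the annotated 3′ UTR was counted as a site when it was TGCTGCT (a 7mer-m8, or an 8mer when followed by A) or GCTGCTA (a 7mer-A1). In GENCODE M21, 14 members had at least 1 site in their longest 3′ UTR, and 12 of these were tested. Windows of 8 of the 9 that passed the test are shown, because members with a site went both ways. The shortest annotated 3′ UTRs of Mrpl3, Mrps17 and Mrpl15 hold no site. Capitals mark the match, and up to 10 bases are given on each side.

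Mrps25, lower with miR-497: actgttaggtTGCTGCTAagacaatagc
Mrpl46, lower: aTGCTGCTcacacgagcc
Mrpl19, lower: acttggctctTGCTGCTgagtttctct
Mrpl3, lower: tggcatgtgtTGCTGCTAcctactgagc
Mrpl24, higher: gcctcagagTGCTGCTtctgcctgtc
Mrps17, higher: gtgcagggggTGCTGCTgggtggttgg
Mrpl47, higher: aaggtccttaGCTGCTAaactgttaaa
Mrpl15, higher: ccatggagcaTGCTGCTtactgacttg

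The Mrps25 window is an 8mer at base 2810 of a 3′ UTR of 5497 bases, which has 3 further 7mer-m8 matches, at bases 292, 4447 and 4450; the last pair overlap each other. Mrpl19 has 3 sites and Mrpl3 has 2. The Mrpl46 match begins at base 2 of its 3′ UTR, next to the stop codon. Among the 12 tested members with a site, 5 (41.7%) fell and 4 (33.3%) rose, with a median log2 fold change of -0.15. Among the 60 tested members without a site, 19 (31.7%) fell and 13 (21.7%) rose, with a median of -0.071. Over all tested genes 26.0% fell and 23.8% rose, with a median of -0.019. No share was taken over all genes with a site. Sites were counted only in the annotation, and whether the cells use these 3′ UTRs was not tested. In the shortest annotated 3′ UTR a site remained in 10 members, of which 9 were tested, 4 (44.4%) fell and 2 (22.2%) rose.

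Library totals ranged from 25777676 to 36159499 counts. Ccnd3, Ccne1 and Arl2, described targets of the miR-16 family that served to check the labels, all fell, Ccnd3 from 432 ± 8.86 to 99.4 ± 11.5 CPM (SD, n = 3). All 12 endothelial markers passed the filter, among them Cdh5 at 2169 CPM and Kdr at 1352 CPM in the mean of the NC libraries. Cd3e and Lum were at 0 in all 6 libraries and Ptprc, Epcam, Krt8 and Krt18 at group means of at most 0.263 CPM. Of the endothelial markers 7 rose (58.3%, against 23.8% of all tested genes) and 3 fell (25%, against 26.0%). Acta2 and Col1a1, of the smooth muscle and fibroblast list, also rose, as did Cd68 of the leukocyte list, and Pdgfrb fell. Lyz2, Cdh1 and Myh11 had group means of at most 0.758 CPM and did not pass the test. The part of these shifts in the results was not tested. Because these are bulk libraries, fewer cells of a type and less RNA per cell cannot be told apart.

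Mitoribosomal transcripts moved in both directions and mostly by little. CPM here means counts relative to the library size as scaled by TMM, and fold changes are miR-497 over NC. Of the 72 tested members, 41 (56.9%) had an edgeR adjusted p under 0.05, against 49.8% of all 14661 tested genes. Higher with miR-497 were 17 members (23.6%, background 23.8%), and lower were 24 (33.3%, background 26.0%). The median log2 fold change over the tested members was -0.088, against -0.019 over all tested genes, with an interquartile range from -0.31 to 0.14. Changes of at least 2-fold that passed the test were found for 2 members, Mrps25 and Mrpl34, where 8.82% of all genes had one. For 48 members (66.7%, background 57.4%) the 3 NC values lay apart from the 3 miR-497 values. Against all tested genes, the members' share of higher genes thus lay at the background, and their shares of lower and non-overlapping genes somewhat above it. Genes with low counts are part of that background. Of the 11641 genes with a mean count of at least 50, 3404 passed as higher and 3542 as lower, larger shares than among all tested genes. The members' counts were still 17 and 24, so their higher share lay under this background and their lower share nearer to it.

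**Figure D1:**
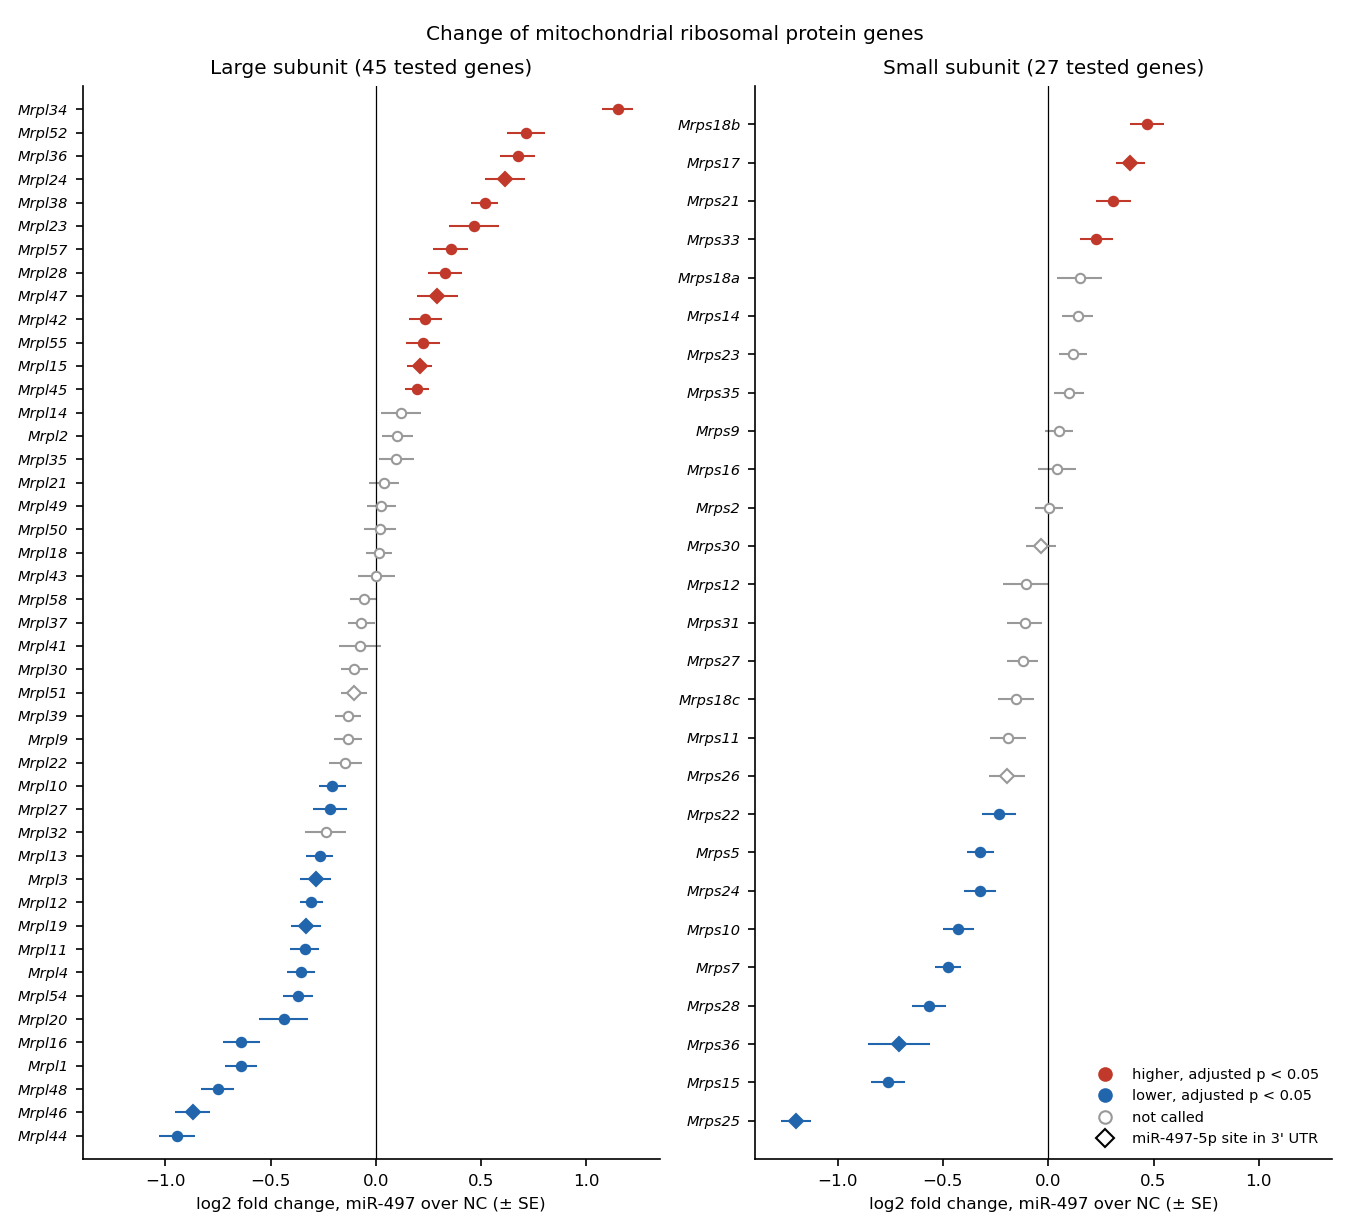
Log2 fold change (miR-497 over NC) with its standard error for each of the 72 tested members, large subunit left and small subunit right, coloured by the call and with diamonds for genes with an miR-497-5p site in the longest 3′ UTR. Estimates run from -1.20 for Mrps25 to 1.15 for Mrpl34, and diamonds lie on both sides of 0.

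The subunits had the same share of falls and different shares of rises, a difference that was not tested. In the large subunit 13 of 45 tested members rose and 15 fell, with a median log2 fold change of -0.068. In the small subunit 4 of 27 rose and 9 fell, with a median of -0.11. The share that fell was 33.3% in each, while the share that rose was 28.9% in the large and 14.8% in the small subunit. Among members with a mean count of at least 1000 the order of the medians turned, with -0.12 for the large and -0.015 for the small subunit. The large subunit median was -0.019 with GC and length offsets, -0.018 with these and the replicate block, and -0.021 with upper-quartile scaling. The small subunit median was -0.066 with upper-quartile scaling and -0.065 without miR-497 library 2. The median of all tested genes also moved, from -0.019 to 0.032 with the offsets, 0.031 with the block added and 0.028 with upper-quartile scaling. Structures place Mrps30 and Mrps18a in the large subunit, and Mrps36 belongs to the 2-oxoglutarate dehydrogenase complex. With these assignments 13 of 47 large subunit genes rose and 15 fell, and 4 of 24 small subunit genes rose and 8 fell.

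Summed over all members, CPM fell by more in the small than in the large subunit, a difference that was not tested. The large subunit genes summed to 2008, 2072 and 2023 CPM in NC libraries 1 to 3 and to 2028, 1923 and 1916 CPM in miR-497 libraries 1 to 3. The groups overlapped, since miR-497 library 1 lay above NC libraries 1 and 3. The small subunit genes summed to 1058, 1106 and 1080 CPM with NC and to 1005, 949.6 and 980.4 CPM with miR-497. Here all 3 miR-497 libraries lay under the lowest NC library. The mean change was -3.86% for the large and -9.52% for the small subunit. Per library, the log2 ratio of large to small sums was 0.925, 0.905 and 0.905 with NC and 1.01, 1.02 and 0.967 with miR-497, again without overlap. With the levels divided by exon length, the ratio rose from 1.11 ± 0.0186 to 1.23 ± 0.0218 (SD, n = 3), also without overlap. Exon length counted every base in any annotated transcript of a gene, so values per length depend on the annotation. These sums describe the libraries and were given no test.

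**Figure D2:**
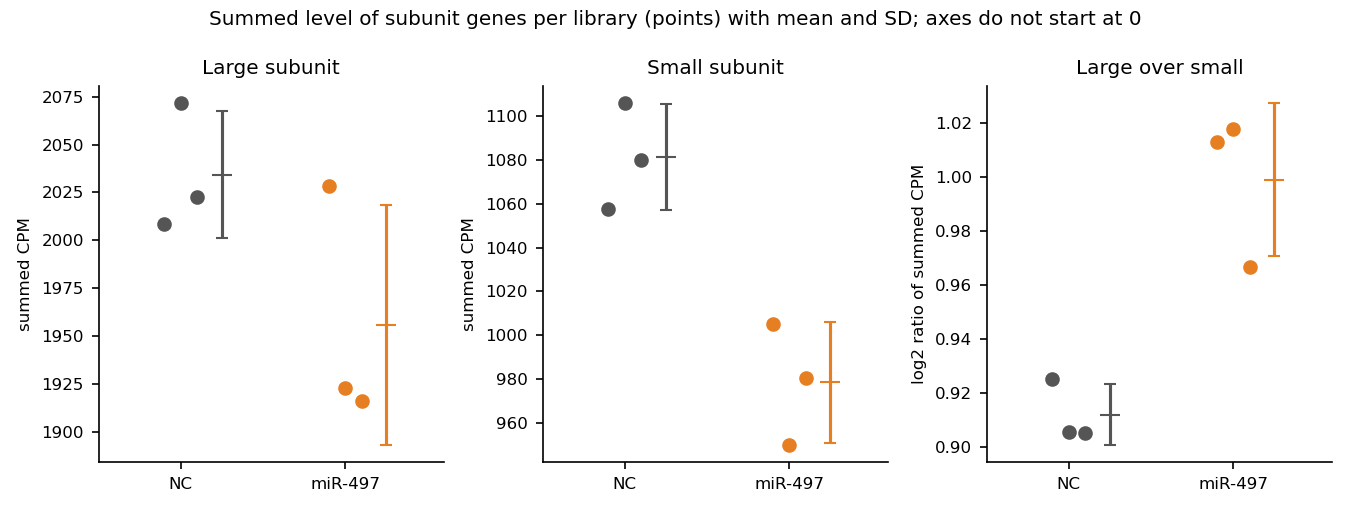
Summed CPM of the large (left) and small (middle) subunit genes and the log2 ratio of the sums (right), 1 point per library, with the mean and SD of each group beside the points. The groups overlap in the large subunit and are apart in the small subunit and in the ratio.

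The largest single changes in the sums came from a few genes. Mrps25 changed by -38.95 CPM, against -102.9 CPM for the small subunit mean. Without Mrps25 the small subunit change was -64.0 CPM or -6.32%, still with no overlap between the groups. That is less in CPM than the change of all large subunit genes, -78.6 CPM. Without Mrpl44 the large subunit change was -48.0 CPM or -2.43%, with overlap. Mrps7 changed by -28.7 CPM, Mrps5 by -14.9 CPM and Mrps15 by -14.8 CPM. In the large subunit Mrpl44 changed by -30.6 CPM and Mrpl12 by -23.3 CPM, while Mrpl38 gained 25.7 CPM and Mrpl34 gained 24.5 CPM. With upper-quartile scaling the changes were -0.724% for the large and -6.54% for the small subunit.

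The first proteins of the large subunit taken here form its stalks, the flexible arms that meet translation factors and the departing tRNA. Mrpl12 is the L7/L12 protein that contacts the elongation factors. In the mean of all 6 libraries it was the most abundant member per length, at 72.2 CPM per kilobase of exon. Such ranks per length depend on the annotated exons. It read 125, 123 and 118 CPM in NC libraries 1 to 3 and 101, 95.8 and 99.8 CPM in miR-497 libraries 1 to 3. Every miR-497 library lay under every NC library, and the log2 fold change was -0.31 (edgeR, SE 0.0527, adjusted p = 1.22e-04). Mrpl10, the anchor to which the L7/L12 copies attach, and Mrpl11, at the base of that stalk, fell as well. Their log2 fold changes were -0.21 (edgeR, SE 0.0629, adjusted p = 0.0116) and -0.34 (edgeR, SE 0.0696, adjusted p = 6.34e-04). Mrpl1, the protein of the L1 stalk at the opposite edge, which handles the tRNA as it leaves, fell further. It read 46.9, 42.9 and 40.6 CPM with NC and 26.8, 29.1 and 27.8 CPM with miR-497, with no overlap and a log2 fold change of -0.64 (edgeR, SE 0.0754, adjusted p = 2.25e-06). Mrpl10 and Mrpl11 were added to this group after their values were seen. Mrpl53, which sits near the L7/L12 stalk, was not tested because its gene is listed at 0.

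At the central protuberance, the crown that faces the small subunit, the members named here moved in opposite directions. Mrpl46, Mrpl48 and Mrpl38 were named for the size of their change, and not all members of this site are listed. Mrpl46 (mL46), a protein of the mitochondrial lineage, read 44.3, 43.5 and 37.97 CPM in NC libraries 1 to 3 and 23.8, 23.99 and 21.1 CPM in miR-497 libraries 1 to 3. All miR-497 values lay under all NC values, with a log2 fold change of -0.87 (edgeR, SE 0.0819, adjusted p = 1.68e-07). Mrpl48 (mL48), its neighbour there, read 32.7, 31.7 and 30.7 CPM with NC and 19.5, 18.9 and 18.2 CPM with miR-497. It fell without overlap, with a log2 fold change of -0.75 (edgeR, SE 0.0774, adjusted p = 4.78e-07). Mrpl38 (mL38), which resembles phosphatidylethanolamine-binding proteins, went the other way. It read 56.9, 61.9 and 60.5 CPM in NC libraries 1 to 3 and 90.8, 85.1 and 80.5 CPM in miR-497 libraries 1 to 3. Each miR-497 library lay above each NC library, with a log2 fold change of 0.52 (edgeR, SE 0.0645, adjusted p = 4.27e-06). Mrpl18 (uL18m), of the same region, had a log2 fold change of 0.015 (edgeR, SE 0.0635, adjusted p = 0.868) and its groups overlapped. Mrpl27, the bacterial-type protein near the peptidyl transferase centre, read 43.4, 46.8 and 40.4 CPM with NC and 34.2, 37.9 and 40.2 CPM with miR-497 and passed the test at -0.22 (edgeR, SE 0.0797, adjusted p = 0.0317), but its call was lost in 5 of the 15 alternative analyses. These were the DESeq2 test (adjusted p = 0.0504), upper-quartile scaling (0.0998) and the fits without NC library 2 (0.168), miR-497 library 1 (0.126) or miR-497 library 2 (0.0625).

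Mrpl46 lies head to head with a small subunit gene, Mrps11, on mouse chromosome 7, and 12.2% of its exon bases are under exons of Mrps11 on the other strand. Mrps11 (uS11m) read 22.8, 25.6 and 22.9 CPM with NC and 19.8, 22.2 and 20.4 CPM with miR-497. Its groups did not overlap, but its log2 fold change of -0.19 (edgeR, SE 0.0868, adjusted p = 0.0782) did not pass the test. The difference between the estimates of the pair was not tested.

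At the peptide exit tunnel Mrpl24, Mrpl23, Mrpl47 and Mrpl45 rose, while Mrpl4 fell. Mrpl24 (uL24m), at the tunnel exit, read 29.8, 29.8 and 22.6 CPM in NC libraries 1 to 3 and 39.2, 42.9 and 43.9 CPM in miR-497 libraries 1 to 3. The groups did not overlap, and NC library 3 was the lowest of all, with a log2 fold change of 0.61 (edgeR, SE 0.0952, adjusted p = 4.28e-05). Exons of Rrnad1 on the opposite strand cover 26.3% of its exon bases, and Rrnad1 itself had a log2 fold change of -0.31 (edgeR, SE 0.129, adjusted p = 0.0598). Mrpl23 (uL23m), also at the exit, read 11.9, 11.97 and 14.6 CPM with NC and 20.2, 17.5 and 15.4 CPM with miR-497. It rose without overlap, by a log2 fold change of 0.46 (edgeR, SE 0.118, adjusted p = 0.00349), at lower counts than most members. Of its 50-base words 66.7% also occur in other genes, most of all in the pseudogene Mrpl23-ps1, which had at most 8 counts in any library, so that the level of Mrpl23 is uncertain.

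Mrpl47, the counterpart of bacterial L29 at the exit, read 18.1, 18.5 and 15.1 CPM with NC and 21.7, 19.8 and 21.95 CPM with miR-497, with no overlap. Its log2 fold change was 0.29 (edgeR, SE 0.0975, adjusted p = 0.0196), and the call was lost without NC library 3 (adjusted p = 0.0889), without miR-497 library 1 (0.0574) and without miR-497 library 3 (0.0538). Mrpl45 (mL45), which ties the exit to the inner membrane, rose by a log2 fold change of 0.20 (edgeR, SE 0.0581, adjusted p = 0.00974); without NC library 1 its adjusted p was 0.0660 and without miR-497 library 1 it was 0.0564. Mrpl4 (uL4m), whose loop lines the tunnel wall, fell, with a log2 fold change of -0.35 (edgeR, SE 0.0668, adjusted p = 2.83e-04), and Mrpl22 (uL22m), on the other side of the tunnel, had -0.14 (edgeR, SE 0.0771, adjusted p = 0.132), which did not pass.

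Mrpl44 (mL44), a relative of ribonuclease III bound to the large subunit, was the member of that subunit with the largest fall. It read 61.9, 60.2 and 69.2 CPM in NC libraries 1 to 3 and 37.1, 32.6 and 29.7 CPM in miR-497 libraries 1 to 3. The groups were far apart, with a log2 fold change of -0.95 (edgeR, SE 0.0848, adjusted p = 9.60e-08), and its 3′ UTR holds no miR-497-5p site.

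The 3 largest rises were all in the large subunit. Mrpl34 (bL34m, ENSMUSG00000034880, chr8:71464959-71465747, plus strand) rose more than any other member. In the mean of all 6 libraries it was the second most abundant large subunit gene per length. That rank includes its rise, since with NC alone several other large subunit genes lay above it. It read 21.1, 18.8 and 20.5 CPM in NC libraries 1 to 3 and 45.5, 42.2 and 45.97 CPM in miR-497 libraries 1 to 3. The lowest miR-497 library lay far above the highest NC library, with a log2 fold change of 1.15 (edgeR, SE 0.0750, adjusted p = 2.26e-09). Its exons overlap no other annotated gene. Mrpl36 (bL36m), a short protein of bacterial type that binds the large rRNA, read 19.2, 18.8 and 16.9 CPM with NC and 29.3, 29.3 and 28.9 CPM with miR-497. All miR-497 values were higher, with a log2 fold change of 0.67 (edgeR, SE 0.0819, adjusted p = 3.18e-06). Mrpl52 (mL52), a protein of the mitochondrial lineage, read 15.1, 14.4 and 16.4 CPM with NC and 23.7, 26.8 and 24.6 CPM with miR-497. Its groups did not overlap either, and the log2 fold change was 0.71 (edgeR, SE 0.0907, adjusted p = 5.35e-06). Mrpl57 (mL63) rose less, by 0.35 (edgeR, SE 0.0827, adjusted p = 0.00178), and Mrpl28 (bL28m) by 0.33 (edgeR, SE 0.0808, adjusted p = 0.00261).

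**Figure D3:**
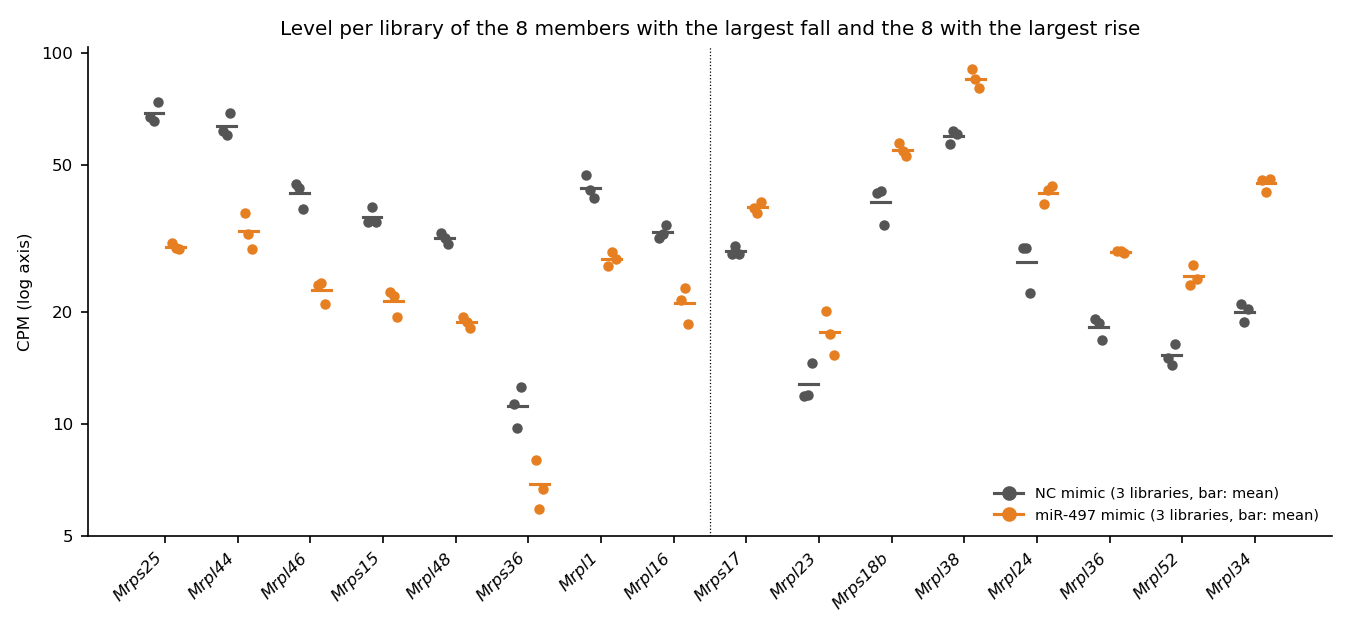
CPM on a log axis in each library for the 8 members with the largest fall (left of the dotted line) and the 8 with the largest rise (right), with bars for the group means of 3 libraries. In each of the 16 genes, which were picked by the size of their change, the NC and miR-497 points do not overlap. The same holds for 57.4% of all tested genes.

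Among further proteins that bind the rRNA core, Mrpl16, Mrpl19 and Mrpl3 fell and Mrpl15 rose. Mrpl16 (uL16m), next to the tRNA sites, read 31.8, 32.6 and 34.5 CPM with NC and 21.6, 23.2 and 18.7 CPM with miR-497. It fell without overlap, with a log2 fold change of -0.64 (edgeR, SE 0.0871, adjusted p = 1.11e-05). Mrpl19 (bL19m), which forms a bridge to the small subunit, read 58.04, 58.7 and 59.7 CPM with NC and 51.1, 46.2 and 43.2 CPM with miR-497 and fell, at -0.33 (edgeR, SE 0.0711, adjusted p = 9.26e-04). Exons of Gcfc2 on the opposite strand cover 36% of its exon bases, and Gcfc2 had a log2 fold change of -0.029 (adjusted p = 0.860 in edgeR). Mrpl3 (uL3m), an early-assembling protein near the catalytic centre, read 43.8, 40.4 and 46.5 CPM with NC and 36.6, 36.4 and 34.1 CPM with miR-497 and fell, at -0.29 (edgeR, SE 0.0738, adjusted p = 0.00388). The groups of both genes stayed apart. Mrpl15 (uL15m), which also has a site in its longest 3′ UTR, rose. It read 71.5, 72.99 and 79.9 CPM with NC and 85.9, 85.9 and 87.2 CPM with miR-497, with no overlap and a log2 fold change of 0.21 (edgeR, SE 0.0600, adjusted p = 0.00820), and the call was lost without NC library 1 (adjusted p = 0.0651) or NC library 2 (0.0614).

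Mrpl13 (uL13m), Mrpl20 (bL20m) and Mrpl54 (mL54) also fell, with log2 fold changes of -0.27, -0.44 and -0.37. The Mrpl13 call was lost with the replicate block and offsets together (edgeR adjusted p = 0.0703). Mrpl42 rose by 0.24, a call lost in 2 of the 15 alternative analyses, without NC library 1 (adjusted p = 0.0535) and without miR-497 library 1 (0.0827). Mrpl55 had a log2 fold change of 0.22 (edgeR, SE 0.0827, adjusted p = 0.0330), and its call was lost in 9 of the 15: without a filter (adjusted p = 0.0755), with GC and length offsets (0.0789), with the replicate block (0.0619), with both (0.125), and without any 1 of the libraries other than miR-497 library 2 (0.0567 to 0.0930). Mrpl58, the peptidyl-tRNA hydrolase that was built into the large subunit and frees stalled chains, read 47.7, 46.3 and 48.3 CPM with NC and 45.3, 45.99 and 45.3 CPM with miR-497. The NC values lay just above the miR-497 values, and the log2 fold change of -0.058 (edgeR, SE 0.0647, adjusted p = 0.482) did not pass the test. The 17 large subunit members that did not pass had log2 fold changes from -0.24 (Mrpl32) to 0.12 (Mrpl14).

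In the small subunit, Mrps25 (ENSMUSG00000014551, chr6:92169525-92184033, minus strand) had the largest fall of all members. It encodes mS25, a protein of the mitochondrial lineage. Mrps25 read 67.4, 65.8 and 73.99 CPM in NC libraries 1 to 3 and 30.8, 29.9 and 29.6 CPM in miR-497 libraries 1 to 3. The miR-497 libraries lay close together and far under the lowest NC library, with a log2 fold change of -1.20 (edgeR, SE 0.0699, adjusted p = 5.68e-10). Exons of Nr2c2 on the other strand cover 69.8% of its exon bases. Nr2c2, a nuclear receptor gene, read 43.2, 41.99 and 46.8 CPM with NC and 35.2, 37.7 and 38.6 CPM with miR-497. It fell less, with a log2 fold change of -0.24 (edgeR, SE 0.0723, adjusted p = 0.0103). Whether the strand was used in counting is not given in the sources used here, so reads from the overlap cannot be assigned between these genes from the table.

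Mrps15 (uS15m), which binds the central domain of the small rRNA, read 35.1, 38.4 and 35.2 CPM with NC and 22.7, 22.2 and 19.4 CPM with miR-497. Its groups were apart, with a log2 fold change of -0.76 (edgeR, SE 0.0815, adjusted p = 7.72e-07). No miR-497-5p site was found in its longest annotated 3′ UTR, but that has only 15 bases, so little sequence was searched. Mrps7 (uS7m), the protein that nucleates the head of the subunit, was its most abundant gene per length, at 42.3 CPM per kilobase in the mean of all 6 libraries. Mrps7 read 94.97, 105 and 107 CPM with NC and 70.6, 74.9 and 74.6 CPM with miR-497. It fell without overlap, with a log2 fold change of -0.48 (edgeR, SE 0.0608, adjusted p = 5.53e-06). Mrps23 (mS23) had nearly the same level in that mean, 42.3 CPM per kilobase, and went the other way in its estimate. It read 59.3, 68.5 and 62.2 CPM with NC and 70.4, 65.5 and 70.02 CPM with miR-497, with overlapping groups and a log2 fold change of 0.12 (edgeR, SE 0.0677, adjusted p = 0.167) that did not pass.

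Mrps10 (uS10m) and Mrps24 (uS3m), both of the head, fell, with log2 fold changes of -0.43 and -0.32, and Mrps5 (uS5m), at the mRNA entry, also fell, at -0.32. Mrps28 (bS1m) fell, at -0.57 (edgeR, SE 0.0801, adjusted p = 1.68e-05). Mrps22 (mS22) fell, at -0.23, a call lost in 5 of the 15 alternative analyses. These were GC and length offsets (edgeR adjusted p = 0.0634), the same with the replicate block (0.0820), upper-quartile scaling (0.0557) and the fits without NC library 1 (0.0577) or miR-497 library 3 (0.108). Mrps12 (uS12m), the decoding-centre protein whose bacterial form is the site of streptomycin resistance, read 16.9, 20.3 and 18.01 CPM with NC and 19.6, 14.7 and 17.2 CPM with miR-497. The groups overlapped, and the log2 fold change was -0.11 (edgeR, SE 0.111, adjusted p = 0.454).

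Mrps36 encodes a protein first taken for a ribosomal one and since placed in the 2-oxoglutarate dehydrogenase complex of the citric acid cycle. It had the lowest level of the named genes and read 11.3, 9.75 and 12.6 CPM in NC libraries 1 to 3 and 7.998, 5.92 and 6.69 CPM in miR-497 libraries 1 to 3. All miR-497 values lay under the NC values, with a log2 fold change of -0.71 (edgeR, SE 0.146, adjusted p = 6.22e-04). Other genes, most of all the pseudogene Mrps36-ps1, share 36.2% of its 50-base words, and the 3 Mrps36 pseudogenes in the table had at most 4 counts in any library. Its level is uncertain for that reason.

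Rises in the small subunit were few. Mrps17 (uS17m), which binds the body of the small rRNA, read 28.7, 30.3 and 28.8 CPM with NC and 38.4, 37.05 and 39.8 CPM with miR-497. The miR-497 values were all higher, with a log2 fold change of 0.39 (edgeR, SE 0.0696, adjusted p = 1.68e-04), and its longest 3′ UTR holds an miR-497-5p site. Mrps21 (bS21m) and Mrps33 (mS33) rose by 0.31 and 0.23. The Mrps33 call was lost in 4 of the 15 alternative analyses, without NC library 1 (edgeR adjusted p = 0.0552), NC library 3 (0.107), miR-497 library 1 (0.0773) or miR-497 library 3 (0.0582).

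The 3 Mrps18 paralogs descend from bacterial S18 and occupy different places in the particle, so each was read on its own. Mrps18b (mS40) read 42.1, 42.4 and 34.5 CPM with NC and 57.2, 54.7 and 53.02 CPM with miR-497. It rose without overlap, by a log2 fold change of 0.47 (edgeR, SE 0.0810, adjusted p = 1.28e-04). The gene Gm16279 on the opposite strand covers 30.5% of its exon bases, at a mean of no more than 0.139 CPM in either group, and 30.9% of its 50-base words occur in other genes. Mrps18a (mL66, in the large subunit) read 13.5, 16.9 and 15.5 CPM with NC and 17.7, 15.6 and 17.7 CPM with miR-497, with overlap and a log2 fold change of 0.15 (edgeR, SE 0.105, adjusted p = 0.257). Mrps18c (bS18m, at the bacterial position) read 28.3, 25.5 and 28.5 CPM with NC and 26.5, 22.1 and 25.5 CPM with miR-497, also with overlap and -0.15 (edgeR, SE 0.0871, adjusted p = 0.157). Of the paralogs, Mrps18b alone passed the test; differences between the paralogs were not tested. Mrps30 (mL65, likewise in the large subunit) read 35.8, 36.4 and 35.8 CPM with NC and 34.3, 37.5 and 33.7 CPM with miR-497. Its groups overlapped, and its log2 fold change of -0.033 (edgeR, SE 0.0706, adjusted p = 0.723) took the opposite sign with upper-quartile scaling (0.013) and with GC and length offsets (0.062).

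Members of bacterial origin and members added later both moved in each direction. Of 41 tested members with a bacterial counterpart, 16 fell (39.02%, background 26.0%) and 9 rose (21.95%, background 23.8%). Their median log2 fold change was -0.13. Of 28 tested members added in the mitochondrial lineage, 8 fell (28.57%) and 6 rose (21.43%), with a median of -0.071. Differences between the sets, and from the background, were not tested. The 28 and the 8 include Mrps36. They also include Mrps28, although its name bS1m refers to a bacterial counterpart. The largest fall (Mrps25) belongs to the added and the largest rise (Mrpl34) to the conserved set. Mrps18a, Mrps18b and Mrpl55 were put in neither set. Across the 72 members the log2 fold change had a Spearman correlation of -0.089 with exon length, 0.043 with GC content, -0.094 with mean log2 CPM and -0.19 with the number of exon blocks. These are descriptions across genes measured in the same 6 libraries.

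Exons of other genes bear on a part of the members. Among the tested members, 7 had 20% or more of their exon bases under opposite-strand exons. Of these 7, 3 (42.9%) rose (Mrpl24, Mrpl47 and Mrps18b) and 2 (28.6%) fell (Mrpl19 and Mrps25). Of the other 65, 14 (21.5%) rose and 22 (33.8%) fell, with a median log2 fold change of -0.10. Over all tested genes 23.8% rose and 26.0% fell. Besides the genes above, Mrpl22, Mrpl27, Mrps10 and Mrps33 share 33.4%, 32.4%, 22.6% and 20.98% of their 50-base words with other genes, so that their levels are uncertain as well. The part of shared or overlapping sequence in the results was not tested.

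The remaining 6 members could not be followed in either group. Mrpl17, Mrpl40, Mrpl53 and Mrps34 were listed at 0 in all 6 libraries, Mrpl33 reached at most 0.164 CPM and Mrps6 ranged from 0.126 to 0.422 CPM. Other genes of the same strand cover 88.0% of the exon bases of Mrpl53 and 37.0% of those of Mrps34, which also lies for 63.4% under Mapk8ip3 on the other strand. Gm42688 shares 100% of the 50-base words of Mrpl53. In GENCODE M21 Mrpl17 and Mrpl40 have no exon overlap with another gene. The cause of these low values was not tested, and they are no measure of whether the genes are transcribed.

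Promoters of mitoribosomal genes are known for sites of NRF1, of ETS factors such as GABPA, and of YY1, factors that serve many nuclear genes of mitochondria. In RefSeq windows (GRCm38.p6) from 250 bases before to 50 bases after the start, 69 members had 75 promoters. The words GCGCATGC (NRF1), CCGGAAG (ETS) and AAGATGGC (YY1) were searched on both strands; none of the words contains another. They occurred in 10.7%, 34.7% and 16.0% of the members' promoters, against 4.72%, 16.1% and 4.10% of the 13869 promoters of tested genes and 2.71%, 8.86% and 2.75% of all 32851 promoters of that length. At least 1 of the words was found in 8 of 15 promoters of members that rose (53.3%), 7 of 22 of members that fell (31.8%) and 20 of 33 of members that did not pass (60.6%). Among all promoters of tested genes it was 22.8%. Some genes have several promoters, so that the 22 came from 19 genes and the 33 from 30. The differences between these groups were not tested. The windows of the member with the largest rise and of that with the largest fall are given, with the matched word in capitals.

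Mrpl34, chr8:71464676-71464975, plus strand: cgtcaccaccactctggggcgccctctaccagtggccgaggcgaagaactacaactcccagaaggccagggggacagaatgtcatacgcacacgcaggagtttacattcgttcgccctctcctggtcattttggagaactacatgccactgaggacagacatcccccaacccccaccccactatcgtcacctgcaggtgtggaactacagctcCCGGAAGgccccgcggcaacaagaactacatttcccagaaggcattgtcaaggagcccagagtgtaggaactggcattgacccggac
Mrps25, chr6:92183974-92184273, minus strand: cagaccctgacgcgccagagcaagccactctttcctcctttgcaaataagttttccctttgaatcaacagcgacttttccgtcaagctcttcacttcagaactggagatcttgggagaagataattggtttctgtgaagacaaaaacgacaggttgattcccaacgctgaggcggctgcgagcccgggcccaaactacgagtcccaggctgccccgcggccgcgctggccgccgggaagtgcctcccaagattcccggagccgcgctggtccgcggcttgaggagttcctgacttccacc

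The Mrpl34 window holds 1 ETS word, and the Mrps25 window holds none of the words. Some genes of these factors changed as well. Nrf1 fell, with a log2 fold change of -0.55 (edgeR, SE 0.0691, adjusted p = 4.80e-06), and Yy1 rose by 0.27 (edgeR, SE 0.0536, adjusted p = 4.75e-04). Gabpa had -0.017 (edgeR, SE 0.0636, adjusted p = 0.845). Esrra, an orphan receptor that drives mitochondrial genes, and Pprc1, a coactivator of the PGC-1 family, fell, at -0.92 (edgeR, SE 0.0771, adjusted p = 4.55e-08) and -0.62 (edgeR, SE 0.0631, adjusted p = 3.83e-07). Of the 16 tested genes for mitochondrial transcription and biogenesis 7 fell (43.75%, background 26.0%) and 3 rose (18.75%, background 23.8%), with a median of -0.092.

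Mitoribosomal proteins that carry other symbols were measured apart from the members. Of 5, 4 fell (80%, background 26.0%) and 1 rose (20%, background 23.8%). Gadd45gip1 (mL64) read 45.5, 43.2 and 40.4 CPM with NC and 20.7, 17.9 and 15.9 CPM with miR-497, with a log2 fold change of -1.25 (edgeR, SE 0.0910, adjusted p = 8.70e-09). Aurkaip1 (mS38) read 36.99, 40.04 and 37.5 CPM with NC and 18.8, 21.9 and 18.05 CPM with miR-497, with -0.96 (edgeR, SE 0.0842, adjusted p = 7.11e-08). In both the groups stayed apart. Ptcd3 (mS39) and Chchd1 (mS37) fell, at -0.39 and -0.20, and Dap3 (mS29), a GTP-binding protein of the small subunit head, rose by 0.17.

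Among genes for the steps that surround the mitoribosome, the shares that passed lay under the 49.8% of all tested genes. They were 32% for assembly, 46.7% for translation factors and 17.6% for synthetases. Of 25 tested assembly genes 6 rose (24%, background 23.8%) and 2 fell (8%, background 26.0%), with a median log2 fold change of -0.028. Mpv17l2, which binds the assembling large subunit, rose by 0.90 (edgeR, SE 0.0833, adjusted p = 1.44e-07). Mrm3, a methyltransferase of the large rRNA, rose by 0.73 (edgeR, SE 0.0948, adjusted p = 6.36e-06). Ddx28 and Mrm2 were listed at 0. Eral1, the chaperone of the small rRNA, fell, at -0.55 (edgeR, SE 0.0762, adjusted p = 1.44e-05). Of 15 translation factor genes 3 rose (20%) and 4 fell (26.7%), with a median of -0.10. Lrpprc, which stabilises mitochondrial mRNAs, rose by 0.46 (edgeR, SE 0.0528, adjusted p = 1.84e-06), and Gfm2, the factor for ribosome recycling, fell, at -0.80 (edgeR, SE 0.0993, adjusted p = 4.17e-06). Of 17 mitochondrial aminoacyl-tRNA synthetases 3 fell (17.6%) and none rose. Their smallest adjusted p-values were for Hars2 at -0.995 (edgeR, SE 0.103, adjusted p = 5.16e-07) and Yars2 at -0.40 (edgeR, SE 0.0713, adjusted p = 1.74e-04). The median of the synthetases was -0.096.

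The products that the mitoribosome makes went up as transcripts. Of 10 tested mitochondrially encoded protein genes 9 rose (90%, background 23.8%) and none fell, with a median log2 fold change of 0.66. Their share of all counts rose from 2.003% ± 0.0665 to 3.21% ± 0.421 (SD, n = 3), while the members' share went from 0.313% ± 0.00736 to 0.292% ± 0.00650, and neither pair of groups overlapped. The genes with the smallest adjusted p were mt-Nd2, from 1113 ± 48.8 to 2459 ± 305 CPM, and mt-Nd5, from 1208 ± 38.8 to 2387 ± 242 CPM (SD, n = 3), with log2 fold changes of 1.14 (edgeR, SE 0.0773, adjusted p = 3.31e-09) and 0.98 (edgeR, SE 0.0701, adjusted p = 6.54e-09). Several of the other mitochondrial genes, such as mt-Co2 at a mean of 2.42 CPM with NC, were far lower in the table than mt-Co1 at a mean of 12628 CPM. Of 79 tested genes of the cytosolic ribosome 58 rose (73.4%) and 5 fell (6.33%, background 26.0%), with a median of 0.35. The smallest adjusted p-values were those of Rpl12 at 1.22 (edgeR, SE 0.0564, adjusted p = 3.77e-11) and Rpl10 at 1.30 (edgeR, SE 0.0633, adjusted p = 7.66e-11). The members' median of -0.088 lay below the medians of both lists.

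**Figure D4:**
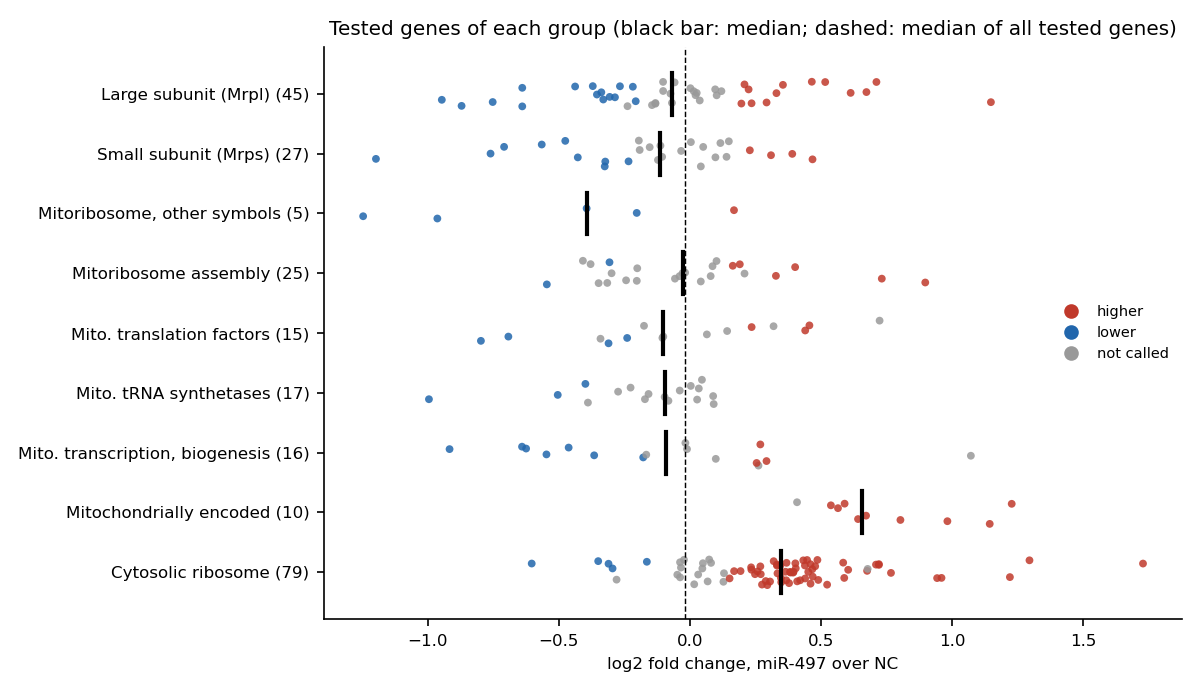
Log2 fold change (miR-497 over NC) of each tested gene in the members and the compared lists, 1 point per gene, coloured by the call, with black bars for list medians and a dashed line at the median of all tested genes. The medians of both subunits lie near the dashed line, while those of the mitochondrially encoded genes (0.66) and the cytosolic ribosome (0.35) lie to its right.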

How the data were processed

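Poly(A) RNA was sequenced from 6 libraries, 3 per group, assigned by sample titles. The deposited values are raw counts of reads per gene for 55401 Ensembl identifiers, not normalized by the authors. STAR 2.5.4b, featureCounts, Subread 1.6.1, edgeR 3.32.1 and the GRCm38 build are named in the submitters' processing notes, which give no role or order. The annotation release, the strand setting and the handling of reads that align to several places are not given in the sources used here.

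Symbols, coordinates, exon overlaps and 3′ UTRs came from GENCODE M21 (GRCm38), which matched 55141 identifiers, and miRNA and promoter sequences from RefSeq (GRCm38.p6). The whole table was fitted with edgeR 4.0.16 in R 4.3.3: filterByExpr (minimum count 10, minimum total 15), TMM scaling and a 2-sided quasi-likelihood test with group as the only term. The Benjamini-Hochberg adjustment took in all 14661 tested genes, and the threshold was 0.05. The script was tested on simulated data. Mean counts of tested members ranged from 280 to 3435, and the standard errors of their log2 fold changes from 0.0527 to 0.146. Shared 50-base words were counted between M21 transcripts of different genes.

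Named members were the 8 largest rises and 8 largest falls among called members, the 2 most abundant per kilobase in each subunit, called members with a site, and Mrpl12, Mrpl58, Mrps12, Mrps18a, Mrps18b, Mrps18c, Mrps30 and Mrps36; of other lists, the 2 smallest adjusted p-values. Further genes were named after their values were seen. The members and lists were chosen with earlier results of these data known, and Mrpl47 was moved to the conserved set afterwards. Alternatives were other scalings, filters, the DESeq2 1.42.0 Wald test, limma 3.58.1 voom, GC and length offsets, a replicate block and each library left out. The results for 1 site window and 1 marker gene are not reported here.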

Additional observations from a re-analysis of the deposited data

How the results depend on the processing

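The counts of called members stayed within 1.5 times under the alternatives tried, with 12 to 18 members higher and 22 to 25 lower; the 12 came without NC library 1 or without miR-497 library 1. With the replicate block, 16 members rose and 24 fell (12 and 15 in the large, 4 and 9 in the small subunit). The replicate numbers share no stated origin, and deviations of same-numbered libraries had correlations of -0.119, -0.0351 and -0.133 across genes. Of 41 called members, 32 kept the call under every alternative and none reversed; the 9 that lost it somewhere were Mrpl13, Mrpl15, Mrpl27, Mrpl42, Mrpl45, Mrpl47, Mrpl55, Mrps22 and Mrps33, 8 of them when 1 library was left out. Of 420 pairs of a named member and an alternative, 412 kept direction and side of the threshold. Mrps30, which was not called, changed sign to 0.062 with GC and length offsets, 0.061 with these and the replicate block, and 0.013 with upper-quartile scaling. The large subunit median moved to -0.019 with the offsets, -0.018 with the block and offsets, -0.021 with upper-quartile scaling and -0.12 over members with a mean count of at least 1000. The small subunit median moved to -0.066 with upper-quartile scaling and -0.015 over members with that mean count, and ranged from -0.15 to -0.065 when 1 library was left out, the lowest without miR-497 library 1 and the highest without miR-497 library 2. The median of all tested genes lay between -0.036 and 0.032. It was -0.019 as reported and rose as well with the offsets (0.032), the block and offsets (0.031) and upper-quartile scaling (0.028). The causes of these shifts were not tested. The sums without their most changed gene were added after seeing the data. Depth limits precision in the members with few counts, and among the named ones the standard error was largest for Mrps36 (0.146) and Mrpl23 (0.118).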
